A study of Mus musculus with 16 samples.

Results

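Collagen genes were taken as all gene symbols made of Col, a number, the letter a and a second number, which gave 44 of the 24411 symbols counted in each library. Of these 44, 24 passed the filter on low counts that left 12901 genes for testing, namely 8 of 11 fibrillar, 5 of 6 basement membrane and 11 of 27 other collagen genes. Polyadenylated RNA of mouse liver was sequenced in 16 libraries, 4 for each of 4 groups. EtOH+MBV mice were fed ethanol under the NIAAA protocol, in which chronic feeding is followed by a binge, and were treated with matrix-bound nanovesicles (MBV), which are nano-sized vesicles embedded in extracellular matrix. EtOH mice received that diet and vehicle. PF+MBV mice were pair-fed, which means that a control diet was given in amounts matched to the ethanol-fed mice, and were treated with MBV. PF mice were pair-fed and received vehicle. The labels used here state no strain, age or sex. The libraries of a group are called repeats, and nothing says that each came from a separate mouse, so p-values measure the spread between these samples, which may be technical.

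Collagens are extracellular proteins whose chains wind into a helix of identical or related chains. Fibrillar collagens form the cables that make up scar tissue, type IV chains form the sheet of basement membranes, and the remaining families link fibrils, anchor cells or line vessels. In liver, stellate cells and portal fibroblasts are the known main sources of fibrillar collagen, and endothelial cells and stellate cells of type IV collagen.

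Libraries held 15271344 to 20493181 counts on genes. Levels are given as CPM, that is counts scaled to a common library total after library sizes were adjusted by the trimmed mean of M values (TMM), whose factors ran from 0.863 to 1.27. Collagen genes took 0.123% to 0.176% of the counts of a library. EtOH replicate 1 had the highest TMM factor, and it was the highest EtOH library for 13 of the 24 tested collagen genes, against 7, 3 and 1 for EtOH replicates 2, 3 and 4. In it, 7 activated myofibroblast markers summed to 37.1 CPM, where EtOH replicates 2 to 4 had 14.0 to 20.9 CPM. There, 6 recruited macrophage markers summed to 48.3 CPM, where EtOH replicates 2 to 4 had 13.0 to 17.9 CPM. Of these, Cd68 had 23.3 and Gpnmb 15.5 CPM in replicate 1. Ccr2 went the other way, at 0.339 CPM against 0.403 to 0.524 CPM in EtOH replicates 2 to 4. Kupffer cell markers, 5 in number, were also highest in replicate 1, with a sum of 408 CPM, where EtOH replicates 2 to 4 had 126 to 174 CPM. The myofibroblast sum was 14.5 to 19.2 CPM in EtOH+MBV, 15.5 to 23.7 CPM in PF+MBV and 11.2 to 21.6 CPM in PF livers, with Cthrc1 at 0 in every EtOH and PF library. The recruited macrophage sum was 10.1 to 14.6 CPM in EtOH+MBV, 11.8 to 14.2 CPM in PF+MBV and 11.55 to 14.0 CPM in PF livers, with no marker at 0 throughout a group. The Kupffer cell sum was 135 to 212 CPM in EtOH+MBV, 202 to 258 CPM in PF+MBV and 197 to 261 CPM in PF livers. EtOH+MBV replicate 1 lay at -0.254 on the first principal component of all tested genes, between the other ethanol-fed libraries at 38.6 to 54.9 and the pair-fed libraries at -48.4 to -32.9. Hepatocyte markers led by Alb were present in every library, and 5 of 6 reached testing. The sixth, Ass1, which hepatocytes are known to express strongly, did not and was at 0 in every PF+MBV library, so a count of 0 here need not mean that a gene was silent.

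Per kilobase of exon, Col18a1 stood far above every other collagen gene in each group. Col18a1 encodes type XVIII collagen, a proteoglycan of vascular and epithelial basement membranes that contains endostatin and that hepatocytes are known to make. Its mean over the 16 libraries was 158 CPM per kb, and it made up 54.0% to 78.9% of all collagen CPM in a library. By the mean over all libraries Col4a1 followed at 13.9, Col4a2 at 8.93, Col14a1 at 6.75 and Col5a3 at 4.84 CPM per kb. Of the fibrillar genes best known from scar tissue, Col3a1 averaged 3.65, Col1a2 2.86 and Col1a1 2.21 CPM per kb. The order below Col18a1 differed between groups. In EtOH livers Col3a1 (4.33), Col1a1 (4.14) and Col1a2 (3.96) lay above Col5a3 (0.931 CPM per kb), and in PF+MBV livers Col5a3 (10.7) lay above Col14a1 (9.97), Col4a1 (9.89) and Col4a2 (7.13 CPM per kb).

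**Figure D1:**
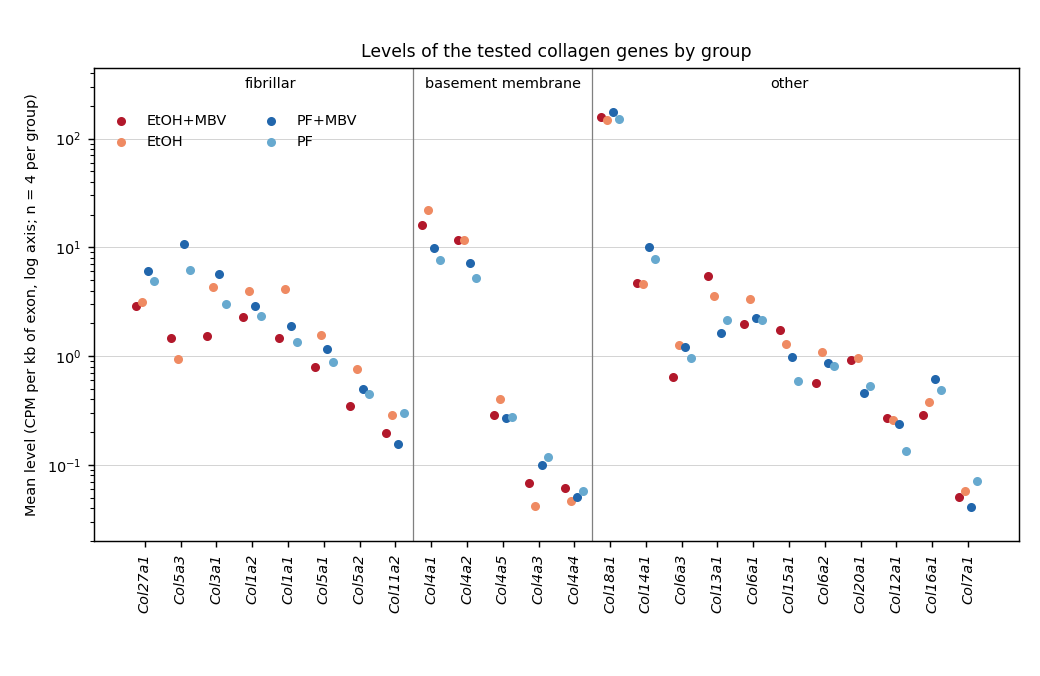
Mean level of each of the 24 tested collagen genes in the 4 groups, in CPM per kb of exon on a log axis, with genes ordered by mean CPM within their class. Col18a1 lies above all others in every group, and Col5a3 shows the widest gap between ethanol-fed and pair-fed groups.

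In single libraries, Col18a1 had 1097, 1131, 958 and 1077 CPM in EtOH+MBV livers and 700.2, 1225, 1135 and 948 CPM in EtOH livers. It had 1247, 1112, 1180.1 and 1186 CPM in PF+MBV livers and 1012, 1084, 1074 and 981 CPM in PF livers. The groups overlapped, apart from PF+MBV, which lay above PF in every library, and EtOH replicate 1 was the lowest of all 16. None of the 5 tests called Col18a1, and its log2 changes ran from -0.15 to 0.19 with standard errors of 0.14 in the 4 pairwise comparisons.

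The 20 collagen genes that did not reach testing had at most 20 counts in a library. Col26a1 and Col9a1 had no count in any library, and 10 of the 20 had no more than 3 counts in any library. They include the type IV chain Col4a6, the fibrillar genes Col2a1, Col11a1 and Col24a1, and all 3 short-chain genes (Col8a1, Col8a2 and Col10a1). Counts of 3 correspond to 0.145 to 0.201 CPM in these libraries, so levels below that rest on fewer than 3 counts.

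The ethanol diet was first compared with pair feeding in vehicle-treated mice. The basement membrane chains Col4a1 (2.86-fold) and Col4a2 (2.25-fold), the vessel-associated Col15a1 (2.23-fold) and the fibrillar Col1a1 (3.06-fold) were higher in EtOH livers, while Col5a3 was 6.63-fold lower and Col14a1 1.66-fold lower. In all, 11 of 24 collagen genes changed with ethanol at an adjusted p under 0.05 (edgeR quasi-likelihood test, Benjamini-Hochberg over all tested genes), 8 higher and 3 lower. Of all tested genes 39.8% changed, 20.4% higher and 19.5% lower, so the share of collagen genes that changed was near the background. The median log2 change was 0.54 over collagen genes and 0.01 over all genes. The collagen count was 7 when only the libraries of these 2 groups were fitted, with 3818 genes called in all. In bulk tissue, fewer cells of a type and less RNA per cell cannot be told apart.

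Among basement membrane genes, 2 of 5 tested rose and 1 fell. Col4a1 and Col4a2, which encode the chains of the type IV collagen found in almost all basement membranes, lie head to head on chromosome 8 (GRCm38, Col4a1 at 11198423 to 11312826 on the minus strand, Col4a2 at 11312805 to 11449287 on the plus strand). Their annotated first exons share 22 bases, shown here because the start of both genes, which rose together, lies within them. The sequence is from RefSeq GRCm38.p6, chr8:11312805-11312826, plus strand, 5′ to 3′, with a GGGCGG motif (GC box) in capitals.
Col4a1 and Col4a2 shared start: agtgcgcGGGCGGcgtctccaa
Reads that overlap both genes are left out by the counting.

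Col4a1 had 187, 144, 135 and 117 CPM in EtOH livers, against 45.9, 47.9, 50.6 and 59.5 CPM in PF livers. Every EtOH library lay above every PF library, with EtOH replicate 1 the highest, and the means were 146 ± 30.0 CPM in EtOH and 51.0 ± 6.01 CPM in PF livers (SD, n = 4 each). The log2 change was 1.51 ± 0.15 (SE, adjusted p = 3.25e-06). Col4a2 had 77.1, 85.5, 64.4 and 74.2 CPM in EtOH livers, against 29.4, 41.0, 33.5 and 29.8 CPM in PF livers. These groups did not overlap either, and the log2 change was 1.17 ± 0.15 (adjusted p = 2.30e-05). Col4a1 and Col4a2 were among 7 collagen genes whose EtOH and PF libraries did not overlap, which held for 32.3% of all tested genes.

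Col4a3, a chain of the type IV network known from the kidney glomerulus, was scarce and fell. It had 0.145, 0.582, 0.201 and 0.516 CPM in EtOH livers, against 1.10, 1.00, 1.05 and 0.870 CPM in PF livers. No EtOH library reached a PF library, and the log2 change was -1.48 ± 0.40 (adjusted p = 0.0078), at no more than 21 counts in any library. Its divergent neighbour Col4a4 did not pass the test (log2 -0.31 ± 0.54), with 0.193 to 0.989 CPM in EtOH and 0.249 to 0.798 CPM in PF livers. Col4a5, an X-linked chain of that network, had 4.16, 1.51, 2.75 and 2.19 CPM in EtOH livers, against 1.77, 1.32, 2.14 and 1.99 CPM in PF livers. The groups overlapped and the gene did not pass the test (log2 0.56 ± 0.31, adjusted p = 0.169).

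Summed over the type IV genes, levels were 185 ± 25.97 CPM in EtOH+MBV, 225 ± 34.1 CPM in EtOH, 115 ± 16.5 CPM in PF+MBV and 87.9 ± 6.23 CPM in PF livers (SD, n = 4 each). The lowest ethanol-fed library had 146 CPM and the highest pair-fed library 139 CPM. Markers of sinusoidal endothelium, a known source of type IV collagen, moved in both directions beside this, with 2 of 10 higher and 7 of 10 lower in EtOH livers. Their sum was 396 to 531 CPM in EtOH+MBV, 377 to 461 CPM in EtOH, 507 to 568 CPM in PF+MBV and 484 to 573 CPM in PF livers, with no marker at 0. Of all tested genes 20.4% were higher and 19.5% lower in EtOH livers. Of 3 tested vascular smooth muscle markers, 2 were higher and 0 lower. Des is among these 3 and is also a listed stellate cell marker. The sum of the 5 listed smooth muscle markers was 11.9 to 14.5 CPM in EtOH+MBV and 14.3 to 22.1 CPM in EtOH livers. It was 14.4 to 17.1 CPM in PF+MBV and 9.90 to 14.0 CPM in PF livers. EtOH and PF sums did not overlap, with 14.3 CPM in the lowest EtOH and 14.0 CPM in the highest PF library. No marker was at 0. The part of sinusoidal endothelium or vascular smooth muscle in the type IV result was not tested.

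**Figure D2:**
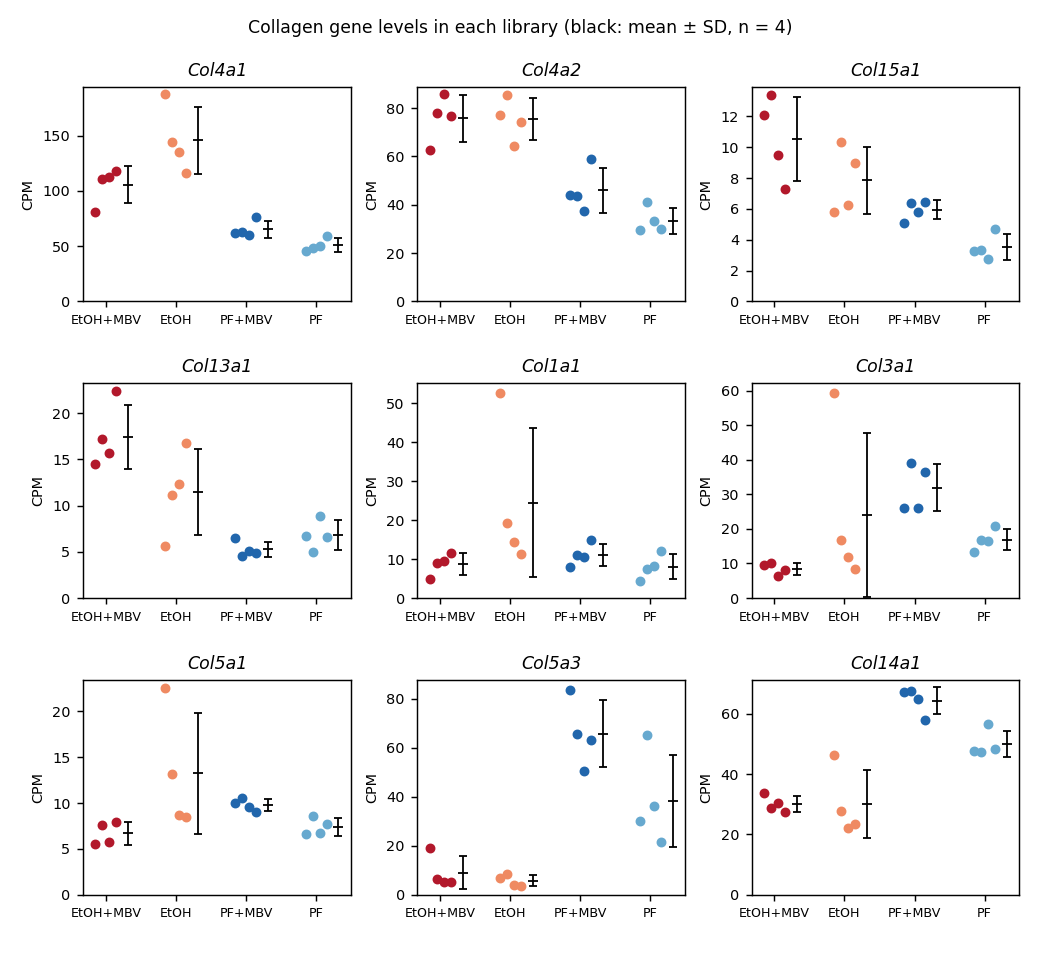
CPM of 9 collagen genes in each library, with coloured points for the 4 libraries of a group and a black bar for their mean ± SD. All EtOH points of Col4a1 lie between 117 and 187 CPM, above the PF points at 45.9 to 59.5 CPM, and EtOH replicate 1 stands apart for Col1a1, Col3a1 and Col5a1.

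Of 8 tested fibrillar genes, Col1a1 and Col5a1 rose with ethanol and Col5a3 fell. Summed over the fibrillar genes, levels were 120 ± 58.9 CPM in EtOH and 126 ± 26.7 CPM in PF livers (SD, n = 4 each). They were 71.0 ± 10.1 CPM in EtOH+MBV and 185 ± 23.9 CPM in PF+MBV livers. Col1a1 encodes the main chain of type I collagen, the bulk of hepatic scar (GRCm38 chromosome 11, 94936224 to 94953042, plus strand). It had 52.8, 19.4, 14.5 and 11.4 CPM in EtOH livers, against 4.46, 7.39, 8.28 and 12.1 CPM in PF livers. EtOH replicate 1 held more than any other library, and EtOH replicate 4 lay below PF replicate 4. The log2 change was 1.61 ± 0.42 (adjusted p = 0.00645), and without EtOH replicate 1 it was 0.91 (adjusted p = 0.0274). Its partner chain Col1a2 had 13.4 to 40.9 CPM in EtOH and 9.72 to 16.7 CPM in PF livers, and did not pass the test (log2 0.76 ± 0.30, adjusted p = 0.0578).

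Col3a1, the type III collagen gene of early and reticular scar, did not pass the test in this comparison (log2 0.52 ± 0.43, adjusted p = 0.345). It had 59.2, 16.8, 11.8 and 8.51 CPM in EtOH livers, against 13.3, 16.8, 16.6 and 20.9 CPM in PF livers. EtOH replicate 1 set the sign of that value: without it the log2 change was -0.44 (adjusted p = 0.140), again not past the threshold. Markers of activated myofibroblasts, of which 0 of 5 tested passed in this comparison, were highest in the same library, as given above. Of all tested genes 20.4% rose and 19.5% fell with ethanol. Of 10 stellate cell markers 4 rose and 2 fell, and of 6 tested portal fibroblast markers 1 rose and 0 fell. The part of these cells in the fibrillar values was not tested.

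Type V collagen showed 2 opposite changes among its 3 genes. Type V chains join type I fibrils and set their diameter. The promoters of Col5a1, which rose, and Col5a3, which fell, are shown together with that of Col3a1, the gene whose diet effect differed most between vehicle and MBV. Each is the 250 bases before the annotated start in RefSeq GRCm38.p6, 5′ to 3′ on the gene's strand, at chr2:27886175-27886424 (plus) for Col5a1, chr9:20815068-20815317 (minus) for Col5a3 and chr1:45311288-45311537 (plus) for Col3a1. Capitals mark matches, on either strand, to CCAAT (the CCAAT box), TATAAA (the TATA box), GGGCGG (the GC box), TGANTCA (the AP-1 type) and GTCTGT (which holds a SMAD-binding core).
Col5a1: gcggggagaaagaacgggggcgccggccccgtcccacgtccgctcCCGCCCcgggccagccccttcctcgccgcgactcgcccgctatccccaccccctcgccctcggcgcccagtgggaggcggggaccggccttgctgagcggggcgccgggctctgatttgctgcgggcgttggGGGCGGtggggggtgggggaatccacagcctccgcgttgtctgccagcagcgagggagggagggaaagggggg
Col5a3: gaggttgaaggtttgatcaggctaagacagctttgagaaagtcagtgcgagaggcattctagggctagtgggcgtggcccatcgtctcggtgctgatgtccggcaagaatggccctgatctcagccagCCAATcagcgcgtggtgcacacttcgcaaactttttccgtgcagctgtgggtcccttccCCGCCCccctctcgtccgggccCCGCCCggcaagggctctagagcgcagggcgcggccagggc
Col3a1: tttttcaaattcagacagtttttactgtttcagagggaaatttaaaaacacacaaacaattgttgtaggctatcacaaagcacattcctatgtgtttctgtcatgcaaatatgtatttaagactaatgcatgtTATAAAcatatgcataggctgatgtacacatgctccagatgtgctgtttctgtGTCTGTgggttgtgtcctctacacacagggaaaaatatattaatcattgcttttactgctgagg
In Col5a1 the GC box motif starts 205 and 73 bases before the start, and in Col5a3 it starts 63 and 41 bases before it, with CCAAT at 122 bases. Col3a1 has no GC box motif here, but TATAAA at 117 and GTCTGT at 64 bases before the start. RefSeq windows of this length were found for 35 of the 44 collagen genes, 38 windows in all, and GGGCGG was in 22 of them (57.9%), against 32.7% of all 32851 windows. CCAAT was in 13 of the 38 (34.2%, against 33.8% of all), TATAAA in 5 (13.2%, against 12.4%), GTCTGT in 8 (21.1%, against 13.2%) and TGANTCA in 1 (2.63%, against 6.75%). A match is a run of letters and says nothing about binding, and none of the motifs overlapped another in the windows shown.

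Col5a1 (GRCm38 chromosome 2, 27886425 to 28039514, plus strand) had 22.6, 13.2, 8.73 and 8.45 CPM in EtOH livers, against 6.60, 8.58, 6.68 and 7.70 CPM in PF livers. The groups overlapped only at the lowest EtOH and the highest PF library. The log2 change was 0.85 ± 0.25 (adjusted p = 0.0128), with 0.47 (adjusted p = 0.0458) without EtOH replicate 1 and an adjusted p of 0.0551 when only these 2 groups were fitted. Col5a2 had 1.68 to 10.2 CPM in EtOH and 1.89 to 4.41 CPM in PF livers, and did not pass the test (log2 0.77 ± 0.40, adjusted p = 0.131).

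Col5a3 (GRCm38 chromosome 9, 20770050 to 20815067, minus strand) had 6.97, 8.38, 3.76 and 3.68 CPM in EtOH livers, against 29.9, 65.0, 36.1 and 21.6 CPM in PF livers. The groups lay far apart, with 8.38 CPM in the highest EtOH and 21.6 CPM in the lowest PF library. The means were 5.70 ± 2.36 CPM in EtOH and 38.2 ± 18.9 CPM in PF livers (SD, n = 4 each), and the log2 change was -2.73 ± 0.43 (adjusted p = 0.000161), the largest of any collagen gene in this comparison. Col5a3 is known from adipose tissue in mice, and the adipocyte marker Cfd, the 1 of 4 that reached testing, was also lower in EtOH livers (log2 -7.49). The 4 markers summed to 0 to 0.255 CPM in EtOH+MBV, 0 to 0.0968 CPM in EtOH, 3.28 to 66.3 CPM in PF+MBV and 5.78 to 19.3 CPM in PF livers. Adipoq, Plin1 and Lep were at 0 in every EtOH+MBV, EtOH and PF library, so that the sum in PF livers was Cfd alone. The part of adipocyte RNA in the Col5a3 result was not tested.

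Col27a1, a fibrillar gene known from cartilage, had 3.97, 48.7, 23.3 and 19.99 CPM in EtOH livers, against 30.5, 47.7, 42.4 and 30.0 CPM in PF livers. EtOH replicate 1 was lowest and EtOH replicate 2 highest of all 8, and the gene did not pass the test (log2 -0.65 ± 0.44, adjusted p = 0.253). Col11a2, another cartilage gene, had 1.45 to 2.22 CPM in EtOH and 1.13 to 2.49 CPM in PF livers and did not pass either (log2 -0.07 ± 0.26).

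Among the other 11 tested genes, 4 rose with ethanol and 1 fell. Col15a1, a close relative of Col18a1 that lies at the outer face of vascular basement membranes, had 5.81, 10.4, 6.24 and 8.96 CPM in EtOH livers, against 3.30, 3.32, 2.74 and 4.72 CPM in PF livers. Every EtOH library lay above every PF library, and the log2 change was 1.16 ± 0.23 (adjusted p = 0.00105). Col14a1, whose product decorates the surface of fibrils, had 46.5, 27.9, 22.1 and 23.5 CPM in EtOH livers, against 47.8, 47.4, 56.5 and 48.3 CPM in PF livers. EtOH replicate 1 came close to the lowest PF library and the other 3 did not. The log2 change was -0.73 ± 0.18 (adjusted p = 0.00381), -1.02 without EtOH replicate 1 (adjusted p = 5.64e-06), and not past the threshold with library totals alone in place of TMM.

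Col13a1, a collagen that spans the cell membrane, had 5.61, 11.1, 12.4 and 16.8 CPM in EtOH livers, against 6.72, 4.95, 8.92 and 6.65 CPM in PF livers. EtOH replicate 1 lay among the PF libraries and the other 3 above them (log2 0.74 ± 0.26, adjusted p = 0.0324). This call was lost without any one of PF replicates 1, 2 and 4 and EtOH replicates 2, 3 and 4 (adjusted p 0.0503 to 0.131), with only these groups fitted and with limma voom. Without EtOH replicate 1 the log2 change was 0.98 (adjusted p = 0.00152). Col12a1, a second fibril-associated gene, had 4.74, 1.86, 2.69 and 3.22 CPM in EtOH livers, against 0.917, 1.69, 1.55 and 2.30 CPM in PF livers. One EtOH library lay within the PF range (log2 0.96 ± 0.32, adjusted p = 0.0253), and the call was lost without EtOH replicate 1, PF replicate 1 or PF replicate 3 (adjusted p 0.0562 to 0.0911) and with only these groups fitted. Without EtOH replicate 1 the log2 change was 0.69.

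Type VI collagen forms beaded filaments around cells, and Col6a1 was its only gene past the threshold, narrowly. Col6a1 had 23.1, 12.1, 10.7 and 9.09 CPM in EtOH livers, against 8.98, 8.27, 8.97 and 9.07 CPM in PF livers. The groups touched without overlap (log2 0.65 ± 0.25, adjusted p = 0.0471). That call was lost without EtOH replicate 1 (log2 0.28, adjusted p = 0.248), without EtOH replicate 2 and without any one PF library. It was also lost with library totals alone, with no filter on low counts, with a replicate block, with only these groups fitted and with limma voom. Col6a3 had 24.0, 13.0, 10.5 and 7.16 CPM in EtOH livers, against 11.1, 10.1, 9.57 and 11.1 CPM in PF livers. Its groups overlapped and it did not pass (log2 0.39 ± 0.26, adjusted p = 0.239), nor did Col6a2 (log2 0.43 ± 0.27), at 3.87 to 11.9 CPM in EtOH and 3.76 to 6.13 CPM in PF livers.

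Col20a1, a little studied fibril-associated gene, had 2.32, 3.43, 8.73 and 5.42 CPM in EtOH livers, against 3.18, 1.88, 3.34 and 2.55 CPM in PF livers. It missed the threshold (log2 0.84 ± 0.34, adjusted p = 0.0568), with EtOH replicate 1 below 3 of the 4 PF libraries, and passed without that library (log2 1.09, adjusted p = 0.00923). Col16a1, of the same family, had 2.61, 2.56, 1.28 and 1.48 CPM in EtOH livers, against 2.32, 2.13, 2.94 and 2.80 CPM in PF livers. The groups overlapped and it did not pass (log2 -0.35 ± 0.28, adjusted p = 0.331). Col7a1, the anchoring fibril gene of skin, had 0.258 to 0.940 CPM in EtOH and 0.249 to 1.18 CPM in PF livers (log2 -0.30 ± 0.50).

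**Figure D3:**
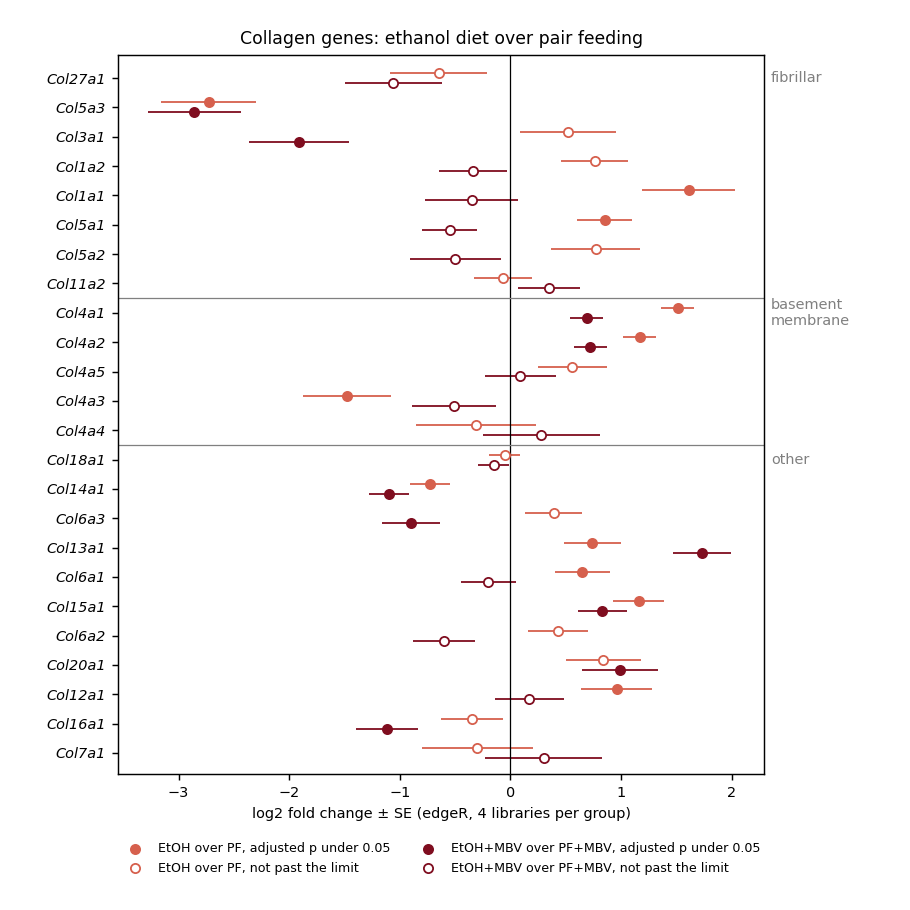
The log2 fold change ± SE of the ethanol diet over pair feeding for 24 collagen genes, under vehicle (lighter) and under MBV (darker), with filled points past the adjusted p limit of 0.05. Col4a1, Col4a2, Col13a1 and Col15a1 were higher and Col5a3 and Col14a1 lower in both, while Col1a1 passed the test under vehicle and Col3a1 under MBV.

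Genes that build, process and sense collagen were then read in the same comparison. Of 21 tested genes of collagen assembly and secretion, 9 rose in EtOH livers and 0 fell (median log2 0.40), where 20.4% of all tested genes rose and 19.5% fell. The 9 changed genes in 21 are near the 39.8% of all tested genes that changed in either direction. Creb3l1, a transcription factor of the secretory pathway that acts on collagen genes, averaged 3.09 ± 0.773 CPM in EtOH and 0.953 ± 0.313 CPM in PF livers (log2 1.68 ± 0.29, adjusted p = 0.000375). Fkbp10, a collagen chaperone, rose by a log2 of 1.64 ± 0.34 (adjusted p = 0.00136). The lysyl hydroxylase gene Plod1 rose by 0.53 ± 0.10 (adjusted p = 0.000496), and P4hb, which encodes a subunit of the collagen prolyl hydroxylases, by 0.52 ± 0.12 (adjusted p = 0.00306). EtOH and PF libraries did not overlap for any of these 4 genes.

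In the list of collagen processing and crosslinking, 5 of 12 tested genes rose and 1 fell (median log2 0.97), against 20.4% and 19.5% of all tested genes. Tgm2, a transglutaminase, averaged 443 ± 85.1 CPM in EtOH and 90.8 ± 13.3 CPM in PF livers (log2 2.29 ± 0.24, adjusted p = 4.29e-06). The lysyl oxidase relatives Loxl2 (log2 1.28 ± 0.26, adjusted p = 0.00109) and Loxl4 (1.68 ± 0.44, adjusted p = 0.00665), which crosslink collagen, rose as well. So did the procollagen protease gene Adamts14 (2.35 ± 0.55, adjusted p = 0.00327). Without EtOH replicate 1 the log2 changes of Loxl4 and Adamts14 were 0.92 and 1.09, still past the threshold. Loxl1 (log2 1.00) made up the fifth rise, and the procollagen C-proteinase gene Bmp1 fell slightly (-0.41). Loxl1 was no longer called without PF replicate 2, PF replicate 3 or EtOH replicate 1 (log2 0.81 without the last), nor Bmp1 without PF replicate 3.

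Of 9 tested collagen breakdown genes, 2 rose and 0 fell (median log2 0.41), a count near the 20.4% of all tested genes that rose. Mmp14, a membrane-bound collagenase, averaged 52.8 ± 4.79 CPM in EtOH and 27.6 ± 3.24 CPM in PF livers (log2 0.94 ± 0.12, adjusted p = 2.29e-05). Mrc2, an uptake receptor for collagen fragments, rose by a log2 of 1.06 ± 0.33 (adjusted p = 0.0189), a call lost without PF replicate 1, PF replicate 3 or EtOH replicate 1 (log2 0.78 without the last). The count was 4 without PF replicate 4 and with DESeq2, and 1 with only these groups fitted. Of 8 tested collagen receptor genes, 4 rose and 1 fell (median log2 0.38), where 39.8% of all tested genes changed. The integrin chain gene Itga1 (log2 0.41 ± 0.10), the receptor tyrosine kinase gene Ddr1 (2.40 ± 0.61) and Adgrg1, a receptor of type III collagen (0.61 ± 0.16), rose, and Itga10, known from cartilage, fell (-1.32 ± 0.36). Ddr1 had 23.4 CPM in EtOH replicate 1 and its log2 change was 0.95 without that library, again past the threshold. The fourth rise was Itga2 (log2 2.33), which was not called without PF replicate 3 or EtOH replicate 1 (log2 1.86 without the last). Itga2 was scarce, with 0.823, 0.175, 0.201 and 0.645 CPM in EtOH livers, against 0, 0.188, 0.0499 and 0.124 CPM in PF livers. Every PF library was at or below the level of 3 counts.

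Among 20 matrix genes whose products bind collagen, 8 rose and 2 fell (median log2 0.27), where 20.4% of all tested genes rose and 19.5% fell. The basement membrane gene Nid1, a linker between type IV collagen and laminin, averaged 123 ± 31.9 CPM in EtOH and 20.7 ± 2.70 CPM in PF livers (log2 2.57 ± 0.34, adjusted p = 3.20e-05). Lama5, a laminin chain gene, rose by a log2 of 1.73 ± 0.19, and Lama4, the chain of endothelial laminin, fell (-1.61 ± 0.22). Thbs1, a matricellular activator of TGF-beta, had a log2 change of 3.82 ± 0.48 and of 3.23 without EtOH replicate 1. Tnxb (log2 -0.52) was the second gene that fell, and its call was lost without PF replicate 3, PF replicate 4 or EtOH replicate 4. The count of 10 was 6 without PF replicate 3, without EtOH replicate 4 or with library totals alone.

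In the list of profibrotic signalling, 8 of 15 tested genes rose and 3 fell (median log2 0.34), where 20.4% of all tested genes rose and 19.5% fell. The TGF-beta ligand gene Tgfb3 averaged 10.0 ± 3.29 CPM in EtOH and 1.24 ± 0.361 CPM in PF livers (log2 3.02 ± 0.28, adjusted p = 1.80e-06), and the receptor gene Tgfbr2 rose by a log2 of 1.38 ± 0.13. The genes that fell were Pdgfb (-1.76 ± 0.34), Ctgf (-1.49) and Pdgfd (-1.05), which encode growth factors that act on fibroblasts, and Pdgfd was not called without PF replicate 4 or EtOH replicate 4. Loxl1, Bmp1, Itga2, Tnxb, Ctgf and Pdgfd were named after their values were seen, to complete counts of 5 or fewer.

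MBV treatment of ethanol-fed mice was compared with vehicle next. A single collagen gene, Col5a1, passed the test, and the other type I, III, V and VI genes with log2 values well below 0 did not. Col5a1 fell (log2 -0.99 ± 0.25, adjusted p = 0.0468), 1 of 24 collagen genes, against 2.69% of all tested genes, of which 1.24% rose and 1.45% fell. At an unadjusted p under 0.05 there were 10 collagen genes, 9 of them lower, and 2723 of 12901 genes. The median log2 change was -0.30 over collagen genes and 0.01 over all genes, and -0.90 over the 8 fibrillar genes.

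Col5a1 had 5.48, 7.57, 5.80 and 7.98 CPM in EtOH+MBV livers, against 22.6, 13.2, 8.73 and 8.45 CPM in EtOH livers. All EtOH+MBV libraries lay below all EtOH libraries, as for 7.6% of tested genes in one direction or the other. The call was lost without any one of EtOH replicates 1 and 2 and EtOH+MBV replicates 1 to 4, with a log2 change of -0.60 (adjusted p = 0.117) without EtOH replicate 1. Without EtOH replicate 3 the count of called collagen genes was 5, and without EtOH replicate 4 it was 9, with 539 and 1147 genes called in all. The Col5a1 call was also lost with library totals alone, with a replicate block and with only these 2 groups fitted. DESeq2 called 7 collagen genes and 905 genes in all, and limma voom 0 and 247.

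Col1a1 had 4.83, 9.11, 9.49 and 11.7 CPM in EtOH+MBV livers, against 52.8, 19.4, 14.5 and 11.4 CPM in EtOH livers, where the fourth EtOH library lay within the EtOH+MBV range. It did not pass the test (log2 -1.49 ± 0.42, adjusted p = 0.0630), and the value was -0.79 without EtOH replicate 1. Col3a1 had 9.49, 10.0, 6.24 and 7.98 CPM in EtOH+MBV livers, again overlapping with EtOH replicate 4 (log2 -1.52 ± 0.44, adjusted p = 0.0695). Without EtOH replicate 1 its log2 change was -0.55.

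The 3 type VI genes had similar log2 values, none past the threshold: -0.97 ± 0.26 for Col6a3, -0.96 ± 0.28 for Col6a2 and -0.79 ± 0.25 for Col6a1 (adjusted p 0.0557 to 0.0907). Without EtOH replicate 1 they were -0.55, -0.51 and -0.41. Col1a2 had a log2 value of -0.81 (adjusted p = 0.142) and Col5a2 of -1.13 (adjusted p = 0.125). The activated myofibroblast, recruited macrophage and Kupffer cell marker sums given above were highest in the same EtOH library, and their part in these differences was not tested.

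Genes that had differed between EtOH and PF livers mostly did not pass the MBV test. Col4a1 averaged 106 ± 16.8 CPM in EtOH+MBV and 146 ± 30.0 CPM in EtOH livers (log2 -0.47 ± 0.15, adjusted p = 0.0912). Col4a2 averaged 75.8 ± 9.67 CPM in EtOH+MBV and 75.3 ± 8.69 CPM in EtOH livers (log2 0.01 ± 0.14), and Col14a1 30.1 ± 2.77 CPM in EtOH+MBV and 30.0 ± 11.3 CPM in EtOH livers (log2 0.00 ± 0.18, SD, n = 4 each). Col5a3 had 19.0, 6.43, 5.22 and 5.15 CPM in EtOH+MBV livers, where replicate 1 stood apart (log2 0.65 ± 0.43, adjusted p = 0.416, and -0.04 without it). Col13a1 had 14.5, 17.2, 15.7 and 22.4 CPM in EtOH+MBV livers, of the 10 genes at an unadjusted p under 0.05 the one with a positive log2 value (log2 0.61 ± 0.25, adjusted p = 0.177). Of the 6 gene lists, 1 of 20 matrix genes and 1 of 15 profibrotic genes passed and none of the other lists, where 2.69% of all tested genes passed. Thbs1 fell (log2 -2.25 ± 0.43, adjusted p = 0.0208) and Tgfb3 fell (-1.46 ± 0.25, adjusted p = 0.0180), both not called without EtOH+MBV replicate 3. Neither was called when only the EtOH+MBV and EtOH libraries were fitted, where 0 of all tested genes passed. Thbs1 had a log2 change of -1.66 without EtOH replicate 1.

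**Figure D4:**
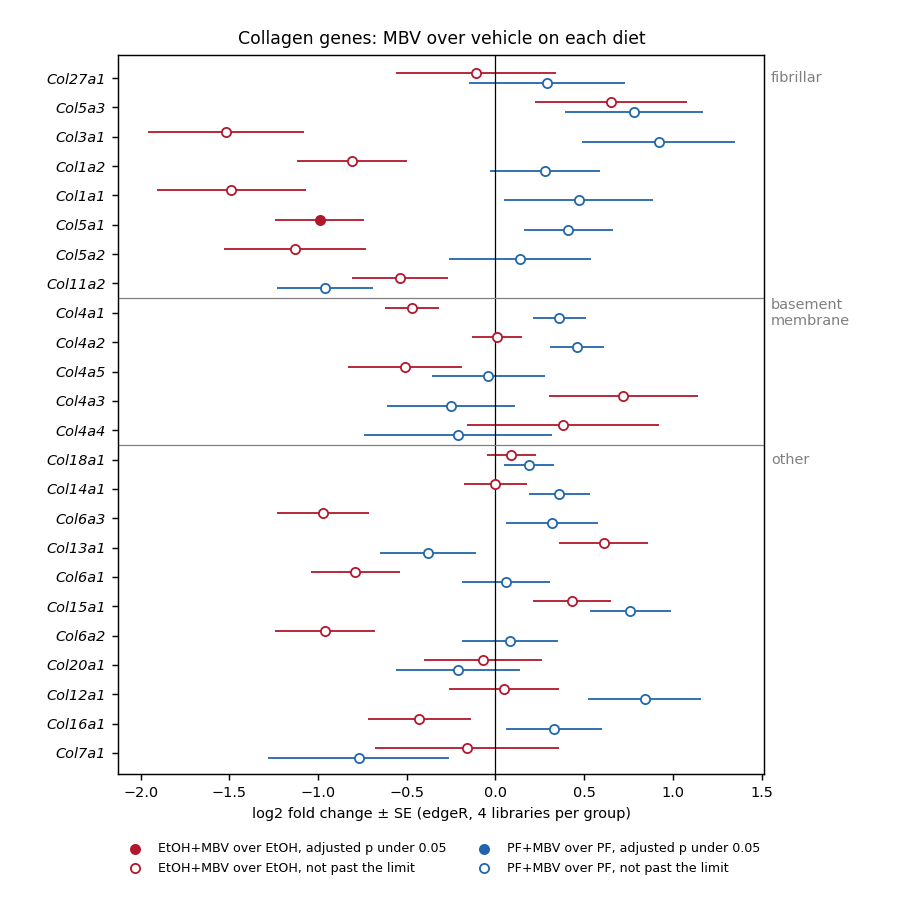
The log2 fold change ± SE of MBV over vehicle for 24 collagen genes, on the ethanol diet (red) and under pair feeding (blue), with filled points past the adjusted p limit of 0.05. Only Col5a1 on the ethanol diet is filled, and Col1a1, Col3a1, Col5a1 and Col6a3 lie below 0 on the ethanol diet and above 0 under pair feeding.

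In pair-fed mice, MBV gave no collagen gene past the threshold (edgeR quasi-likelihood test), against 1.78% of all tested genes, of which 0.752% rose and 1.03% fell. At an unadjusted p under 0.05 there were 6 collagen genes, and 2181 of 12901 genes. DESeq2 called 2 collagen genes and 665 genes in all, and limma voom 0 and 215. The collagen count was 3 when only these 2 groups were fitted, with 1113 genes called in all. It was 2 without PF replicate 2, with 692 genes called in all. The median log2 change was 0.29 over collagen genes and 0.00 over all genes. The smallest p belonged to Col11a2, with 0.757 to 1.12 CPM in PF+MBV and 1.13 to 2.49 CPM in PF livers (log2 -0.96 ± 0.27, adjusted p = 0.0839). Col15a1 had 5.11, 6.38, 5.83 and 6.47 CPM in PF+MBV livers, all above the PF libraries (log2 0.76 ± 0.23, adjusted p = 0.102). Col3a1 had 26.1, 39.0, 25.98 and 36.3 CPM in PF+MBV livers, also above all PF libraries (log2 0.92 ± 0.43, adjusted p = 0.287). Libraries of the 2 groups did not overlap for 8 collagen genes, 7 of them higher in PF+MBV livers, and for 15% of all tested genes.

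Ethanol was compared with pair feeding a second time in MBV-treated mice. Type IV chains Col4a1 and Col4a2, Col15a1, Col13a1 and Col20a1 were higher in EtOH+MBV livers and Col5a3, Col3a1, Col16a1, Col14a1 and Col6a3 lower. These were 10 of 24 collagen genes, 5 in each direction, against 35.9% of all tested genes, of which 19.2% were higher and 16.7% lower. The median log2 change was -0.27 over collagen genes and -0.01 over all genes. Libraries did not overlap for 13 collagen genes and for 39% of all tested genes.

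Col4a1 had 80.8, 111, 113 and 118 CPM in EtOH+MBV livers, against 62.0, 62.7, 60.2 and 76.8 CPM in PF+MBV livers. All EtOH+MBV libraries were higher, with replicate 1 close to PF+MBV replicate 4 (log2 0.69 ± 0.15, adjusted p = 0.00226). Col4a2 had 62.7, 77.8, 86.0 and 76.7 CPM in EtOH+MBV livers, against 43.9, 43.4, 37.5 and 59.1 CPM in PF+MBV livers. It was likewise above in every library (log2 0.72 ± 0.15, adjusted p = 0.00142). Col4a3 did not pass here (log2 -0.51 ± 0.38), at 0.932, 0.402, 0.382 and 0.628 CPM in EtOH+MBV and 0.940, 0.811, 0.833 and 0.802 CPM in PF+MBV livers, nor did Col4a4 (0.28 ± 0.53). Col4a5 had 1.37, 1.21, 2.55 and 2.39 CPM in EtOH+MBV and 1.76, 2.16, 1.51 and 1.60 CPM in PF+MBV livers, which overlapped.

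Col13a1 rose most (log2 1.73 ± 0.26, adjusted p = 0.000179), with the 4 EtOH+MBV values given above against 6.47, 4.60, 5.10 and 4.87 CPM in PF+MBV livers. Its lowest EtOH+MBV library had 14.5 CPM and its highest PF+MBV library 6.47 CPM. Col15a1 had 12.1, 13.4, 9.49 and 7.29 CPM in EtOH+MBV livers, above every PF+MBV library (log2 0.83 ± 0.22, adjusted p = 0.0089). Col20a1 had 4.55, 4.82, 5.86 and 3.58 CPM in EtOH+MBV livers, against 1.47, 2.60, 2.76 and 2.64 CPM in PF+MBV livers. Its libraries did not overlap (log2 0.99 ± 0.34, adjusted p = 0.0330), but the call was lost without any one of EtOH+MBV replicates 2 and 3 and PF+MBV replicates 1, 2 and 4.

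Among genes that fell, Col5a3 again changed most, with 19.0, 6.43, 5.22 and 5.15 CPM in EtOH+MBV livers, against 83.6, 65.4, 50.6 and 63.1 CPM in PF+MBV livers. No libraries overlapped, and the log2 change was -2.86 ± 0.42 (adjusted p = 0.000147), or -3.55 without EtOH+MBV replicate 1. Col14a1 had 33.8, 28.8, 30.5 and 27.3 CPM in EtOH+MBV livers, against 67.2, 67.6, 64.9 and 58.0 CPM in PF+MBV livers. The gap between the groups was wider than the range within either (log2 -1.10 ± 0.18, adjusted p = 0.000273). Col3a1 was lower in all EtOH+MBV libraries, with the values given above (log2 -1.91 ± 0.45, adjusted p = 0.00368).

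Col16a1 had 1.37, 1.14, 1.15 and 2.26 CPM in EtOH+MBV livers, against 3.76, 2.92, 2.60 and 3.61 CPM in PF+MBV livers. These did not overlap (log2 -1.12 ± 0.28, adjusted p = 0.00628). Col6a3 had 7.51, 8.04, 5.54 and 6.85 CPM in EtOH+MBV livers, against 13.8, 14.8, 10.5 and 13.1 CPM in PF+MBV livers, again without overlap (log2 -0.90 ± 0.26, adjusted p = 0.0146). Other type VI genes did not pass: Col6a1 had 5.21, 8.30, 8.34 and 10.2 CPM in EtOH+MBV and 7.41, 10.2, 9.06 and 10.1 CPM in PF+MBV livers, and Col6a2 had a log2 change of -0.60 ± 0.28.

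Col1a1, with 8.05, 11.2, 10.6 and 14.8 CPM in PF+MBV livers, overlapped between the MBV groups and did not pass (log2 -0.35 ± 0.42, adjusted p = 0.541). Col5a1 did not pass either (log2 -0.55 ± 0.25, adjusted p = 0.0993), although all 4 EtOH+MBV libraries lay below the PF+MBV libraries at 10.1, 10.5, 9.58 and 9.00 CPM. The same held for Col27a1, with 28.8, 26.7, 18.0 and 15.1 CPM in EtOH+MBV and 55.1, 46.3, 34.6 and 48.6 CPM in PF+MBV livers (log2 -1.06 ± 0.44, adjusted p = 0.0729). Col12a1 had 2.58, 2.34, 3.57 and 4.52 CPM in EtOH+MBV and 3.47, 3.24, 2.50 and 2.35 CPM in PF+MBV livers and did not pass the test (log2 0.17 ± 0.31). Col1a2, Col5a2, Col11a2 and Col7a1 had log2 changes between -0.50 and 0.35, none past the threshold.

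Counts over the 6 gene lists can be read against the share of all tested genes that changed, 35.9%, with 19.2% higher and 16.7% lower. Of 21 tested assembly and secretion genes 5 were higher and 2 lower, of 12 processing and crosslinking genes 1 was higher and 2 lower, and of 9 breakdown and 8 receptor genes 3 each were higher and 0 lower. Of 20 matrix genes 3 were higher and 4 lower, and of 15 profibrotic genes 4 were higher and 3 lower. Some of these calls were unstable: Pcolce (lower) held in 1, Mmp8 (higher) in 3 and Pdgfd (lower) in 2 of 8 fits that each left out 1 library. Mmp8 had 0 to 0.270 CPM in PF+MBV livers. Among matrix genes, Nid1 (log2 1.91 ± 0.33), Lama5 (1.19 ± 0.19) and Fn1 (0.86) were higher. Nid2 (-1.75), Lama4 (-1.62 ± 0.21), Lamb1 (-0.82) and Tnxb (-0.49) were lower, with the Tnxb call lost without EtOH+MBV replicates 1 or 3 or PF+MBV replicates 2 or 4. Fn1, Nid2, Lamb1, Tnxb, Pcolce, Mmp8 and Pdgfd were named here after their values were seen. Tgm2 (1.43 ± 0.23) was higher as well. The count of assembly and secretion genes was 3 with library totals alone, and 2 to 4 without any one of EtOH+MBV replicates 2, 3 and 4 and PF+MBV replicates 1 and 2.

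Whether the MBV effect differed between the diets was tested as an interaction, the log2 change of EtOH+MBV over EtOH minus that of PF+MBV over PF. It was negative and past the threshold for 3 of 24 collagen genes, against 4.11% of all tested genes, of which 2.02% were higher and 2.09% lower. Col3a1 differed by -2.44 ± 0.61 (adjusted p = 0.0376), Col5a1 by -1.40 ± 0.35 (adjusted p = 0.0382) and Col4a1 by -0.83 ± 0.21 (adjusted p = 0.0387). At an unadjusted p under 0.05 there were 11 collagen genes, and 3000 of 12901 genes. DESeq2 called 5 collagen genes and 1113 genes in all, and limma voom 1 and 461. The median was -0.46 over collagen genes and 0.00 over all genes.

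Each of these 3 calls was lost in turn when certain single libraries were left out. Col3a1 lost it without PF replicates 1, 3 or 4, EtOH+MBV replicates 2, 3 or 4 or any PF+MBV replicate, and without EtOH replicate 1 it was -1.47 with an adjusted p of 0.0208. Col5a1 lost it without PF replicates 1, 3 or 4, EtOH replicate 2, EtOH+MBV replicates 1, 2 or 3 or any PF+MBV replicate. Col4a1 lost it without PF replicates 1 or 3, EtOH replicate 2, EtOH+MBV replicates 2 or 3 or any PF+MBV replicate. Over all 16 such fits the value ran from -2.72 to -1.47 for Col3a1, from -0.92 to -0.68 for Col4a1 and from -1.56 to -1.0 for Col5a1. With limma voom the Col3a1 and Col5a1 calls were lost, and that of Col5a1 also with library totals alone. With a replicate block the Col3a1 and Col4a1 calls were lost. The count of called collagen genes was 7 without EtOH replicate 4 and 5 without EtOH replicate 3, with 1078 and 759 genes called in all.

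The ratio of chains within a library is free of library scaling, and 7 pairs were read in this way, without a test; the 4 given here were picked after their levels had been seen. Col5a3 over Col5a1, per kb, was 4.75, 1.17, 1.24 and 0.887 in EtOH+MBV and 0.424, 0.871, 0.592 and 0.598 in EtOH livers. It was 11.4, 8.52, 7.26 and 9.63 in PF+MBV and 6.23, 10.4, 7.42 and 3.84 in PF livers. Pair-fed livers thus held several times more Col5a3 than Col5a1 RNA, vehicle-treated ethanol-fed livers less, and EtOH+MBV replicate 1 lay within the range of PF livers.

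Col3a1 over Col1a1 was 2.10, 1.18, 0.701 and 0.728 in EtOH+MBV and 1.19, 0.925, 0.868 and 0.795 in EtOH livers. It was 3.45, 3.71, 2.62 and 2.61 in PF+MBV and 3.18, 2.42, 2.13 and 1.84 in PF livers. EtOH replicate 1, which stood apart in the level of both genes, had the highest EtOH ratio but still lay below every pair-fed library. Col1a1 over Col1a2 was 0.749 to 1.16 in EtOH livers, against 0.414 to 0.656 in PF livers, without overlap, and 0.454 to 0.777 in EtOH+MBV livers, against 0.561 to 0.725 in PF+MBV livers, with overlap. Col4a1 over Col4a2 averaged 1.36 ± 0.112 in EtOH+MBV, 1.90 ± 0.383 in EtOH, 1.40 ± 0.123 in PF+MBV and 1.52 ± 0.331 in PF livers (SD, n = 4 each), with overlap between EtOH and PF livers.

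**Figure D5:**
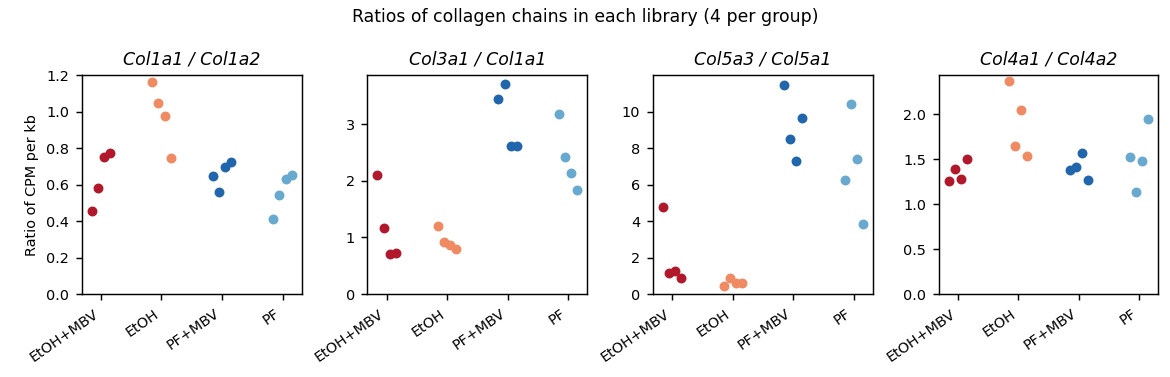
Ratio of CPM per kb of a pair of collagen genes in each library, 4 libraries per group, on linear axes that start at 0. Col3a1 over Col1a1 and Col5a3 over Col5a1 lie lower in EtOH than in PF livers, with Col3a1 over Col1a1 at 0.795 to 1.19 in EtOH and 1.84 to 3.18 in PF livers.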

How the data were processed

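Liver RNA of 16 mouse samples was counted per gene; the count values were used as deposited, with no normalization by the authors recorded. Trimmomatic, STAR and the build mm10 were used, per the submitters' processing notes; which versions, settings and gene models they ran is not given in the sources used here. Each table holds 24411 gene symbols, 4 categories that are no genes and 3 columns of counts. Unstranded counts were taken, since 1 stranded column held 50.6% to 51.8% of stranded counts, so reads of a gene and an antisense partner cannot be told apart. Of the reads, 11.6% to 19.9% were unmapped, 4.57% to 7.58% multimapping, 9.40% to 10.9% without a feature and 1.35% to 1.69% ambiguous. Exons of Col4a1 and Col4a2 overlap by 22 bases, Col10a1 and Nt5dc1 by 18, Col7a1 and Mir711 by 36 and Col9a3 and Tcfl5 by 234.

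Genes were kept by filterByExpr (minimum count 10). A model with 1 mean for each group and 5 contrasts was fitted in edgeR 4.0.16 (TMM, quasi-likelihood; R 4.3.3) on the 16 libraries together. Adjusted p is Benjamini-Hochberg across the 12901 genes, with a limit of 0.05. Alternatives used DESeq2 1.42.0, limma 3.58.1 (voom), other scalings, no filter, only the groups compared, a replicate block and each replicate left out. The fit was tested on simulated counts in which every group had the same spread per gene, unlike the groups here. Exon lengths and coordinates are of the GENCODE M21 basic set (GRCm38), and promoters of RefSeq GRCm38.p6. Values in every library are given for members called in any contrast and for the 3 highest of each class; from each pathway list at most 4 called genes with the smallest p are named, of which 1 is not reported here. The members, lists and tests were chosen with earlier results of these data known.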

Additional observations from a re-analysis of the deposited data

Results flagged for a closer look

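In 7 of 96 combinations of a tested collagen gene and a group, 1 library lay apart from the other 3 by more than Dixon's 95% limit for 4 values allows, where chance alone gives about 1 in 20, or 4.8. EtOH replicate 1 accounts for 2 of them, with Col3a1 at 59.2 CPM, against 8.51 to 16.8 CPM in EtOH replicates 2 to 4, and Col1a2 at 40.9 CPM, against 13.4 to 16.7 CPM. EtOH+MBV replicate 1 had 19.0 CPM of Col5a3, against 5.15 to 6.43 CPM in the other EtOH+MBV libraries. PF+MBV replicate 4 had 76.8 CPM of Col4a1, against 60.2 to 62.7 CPM in its group, and PF+MBV replicate 1 had 1.47 CPM of Col20a1, against 2.60 to 2.76 CPM. PF replicate 3 had 56.5 CPM of Col14a1, against 47.4 to 48.3 CPM, and PF replicate 2 had 8.27 CPM of Col6a1, against 8.97 to 9.07 CPM.

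For 3 collagen genes the MBV effect differed between ethanol-fed and pair-fed mice in the interaction test (edgeR, adjusted p under 0.05): Col3a1 by a log2 of -2.44, Col5a1 by -1.40 and Col4a1 by -0.83. For Col3a1 the MBV effect was -1.52 on the ethanol diet and 0.92 under pair feeding. For Col5a1 it was -0.99 on the ethanol diet and 0.41 under pair feeding, and for Col4a1 -0.47 on the ethanol diet and 0.36 under pair feeding. Of these MBV effects only that of Col5a1 on the ethanol diet passed the edgeR test (adjusted p = 0.0468, the others 0.0695 to 0.449). In 16 fits that each left out 1 library, the interaction was called in 6 for Col3a1, 5 for Col5a1 and 7 for Col4a1.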

How the results depend on the processing

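Of 25 called log2 changes of collagen genes, 15 were called under every alternative run, and none of the 2061 alternative values reversed a call. Counts of called collagen genes by EtOH against PF, EtOH+MBV against EtOH, PF+MBV against PF, EtOH+MBV against PF+MBV and interaction were 11, 1, 0, 10 and 3. With only the groups compared they were 7, 0, 3 and 13, with the interaction not run. With DESeq2 they were 13, 7, 2, 10 and 5, and with limma voom 9, 0, 0, 10 and 1. With a replicate block they were 10, 0, 0, 10 and 2. EtOH+MBV against EtOH had 0 calls with library totals alone and 0 without EtOH and EtOH+MBV replicate 1 together. Leaving out 1 replicate at a time gave 8 to 13, 0 to 9, 0 to 2, 9 to 10 and 0 to 7, and for all genes, where the counts were 5137, 347, 230, 4633 and 530, it gave 4255 to 5040, 8 to 1147, 47 to 692, 3420 to 5334 and 164 to 1078. Library totals alone moved the median of all genes by -0.12 (EtOH+MBV against EtOH), -0.14 (EtOH+MBV against PF+MBV) and -0.19 (interaction) on the log2 scale. The causes were not tested.

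No clear pairing of libraries by replicate number was seen in 24 same-numbered pairs. Correlations of deviations from the group means ran from -0.124 to 0.170 (median 0.0140), 3 were over 0.1, and 5 were highest for their own number. A weak pairing could be missed with 4 libraries per group. Genes at a few counts, such as Col4a3, Col4a4 and Col7a1, are limited by counting depth. Libraries of the ethanol groups varied more, with a chi-square per degree of freedom between replicates of 16.6 to 107 (EtOH+MBV) and 25.9 to 163 (EtOH), against 8.54 to 16.0 (PF+MBV) and 14.6 to 61.0 (PF), while 1 spread per gene was fitted.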
